A study of Rattus norvegicus with 4 samples.

Results

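The 5 genes described here are *Cyp2b1*, *Cyp2b2* and *Cyp2b3*, which encode cytochrome P450 enzymes of the 2B subfamily, and *Nr1i3* and *Nr1i2*, which encode the nuclear receptors CAR (constitutive androstane receptor) and PXR (pregnane X receptor). They were chosen by name from the 16999 named genes of 4 RNA-seq libraries of rat liver, and each was listed once in every table. The rats, labeled as wild type, inhaled sevoflurane at 4.5% or desflurane at 6%, both halogenated anesthetics. For each agent there was a liver taken at the loss of consciousness (0 h, the control) and a liver taken after 6 h of anesthesia, so the control rats had also breathed the agent briefly. Each of the resulting 4 groups is represented by 1 library (named here by agent and hour), and a difference between groups is therefore a difference between single animals. The submitters state that control and anesthetized livers were collected 6 h apart, so the duration of anesthesia and the hour of harvest cannot be told apart.

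CAR and PXR are the main sensors of foreign compounds in hepatocytes. CAR is held in the cytoplasm and enters the nucleus after exposure to compounds such as phenobarbital, whereas PXR is activated by binding its ligands, and both act on DNA as a dimer with the retinoid X receptor (RXR). *Cyp2b1* and *Cyp2b2* are the classical phenobarbital-induced genes of rat liver and targets of CAR, and *Cyp2b3* is known as a constitutively expressed relative. Because CAR is controlled by its location in the cell, the level of its RNA is not a measure of its activity.

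Levels are given as TPM, a transcript abundance scaled for gene length and library size. The aligned bases implied by the tables ranged from 3.50 Gb in sevoflurane 0 h to 5.57 Gb in desflurane 6 h, and the lowest mean coverage behind a value of the 5 genes was 13.5-fold, for *Cyp2b1* in sevoflurane 0 h. Calls rest on size alone: the larger of the compared TPM values had to exceed 2 and the ratio had to exceed 2. All 5 genes passed this minimum in every comparison. The defining hepatocyte marker albumin ranged from 53282 to 58867 TPM, and none of the 7 hepatocyte markers examined was called with either agent, the 4 that moved most being *Apoa1* (1173 to 2164 TPM over the libraries), *Tf* (17076 to 21290), *Serpina1* (4612 to 6021) and *Fgb* (4293 to 5368). Of 20 markers of other liver cells and blood found in the tables, 15 exceeded the minimum with each agent. Among them, 1 was called higher with sevoflurane (*Hbb*, a red blood cell gene, 291 to 797 TPM) and 0 with desflurane (491 to 872 TPM). Over all genes above the minimum, 8.75% were called in either direction with sevoflurane and 9.65% with desflurane. For lists of this size the marker counts are near that share, so they do not show that the makeup of the samples was stable. The summed TPM of the markers of other liver cells and blood was 607 and 796 in the sevoflurane and desflurane controls and 1087 and 1232 in the corresponding 6 h livers. *Hbb* was the largest single part of this sum in every library, so the sum does not show a general rise of these markers. The other red blood cell gene, *Hba-a1*, ranged from 0.062 to 0.48 TPM (it was singled out after its values were seen). Of the pancreatic markers, *Prss1* was listed at 0 throughout and *Cela1* ranged from 23.9 to 29.7 TPM (both were singled out after their values were seen). The Kupffer cell marker *Cd163* ranged from 19.2 to 26.7 TPM, *Reln* from 6.08 to 8.30 TPM and the leukocyte marker *Ptprc* from 3.32 to 5.43 TPM. The part of the *Hbb* difference in the results below was not tested. In these bulk samples, a change in RNA per cell and a change in the number of cells cannot be told apart.

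*Cyp2b1* and *Cyp2b2* rose with both agents while *Cyp2b3* was not called, and *Nr1i2* rose while *Nr1i3* was not called. Of the 5 genes, 3 were called higher and 0 lower with each agent, against a background of 5.04% of tested genes called higher and 3.71% lower with sevoflurane (8.75% in all), and 4.10% higher and 5.55% lower with desflurane (9.65% in all). Scaling by the median of ratios turned the split over all genes with desflurane from 343 higher and 465 lower to 419 and 365, with the same 3 members called. The median change over all genes was 0.05 and -0.10 on the log2 scale with sevoflurane and desflurane, and the controls differed by a median of 0.12. The change common to both agents was also tested with limma across 8024 genes, which takes the pair of livers of sevoflurane and the pair of desflurane as repeats of the same contrast. This test called 8.62% of genes (4.69% higher and 3.94% lower), among them, all higher, *Cyp2b1*, *Cyp2b2* and *Nr1i2*. It has 1 residual degree of freedom and borrows its estimate of the spread largely from the other genes.

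**Figure D1:**
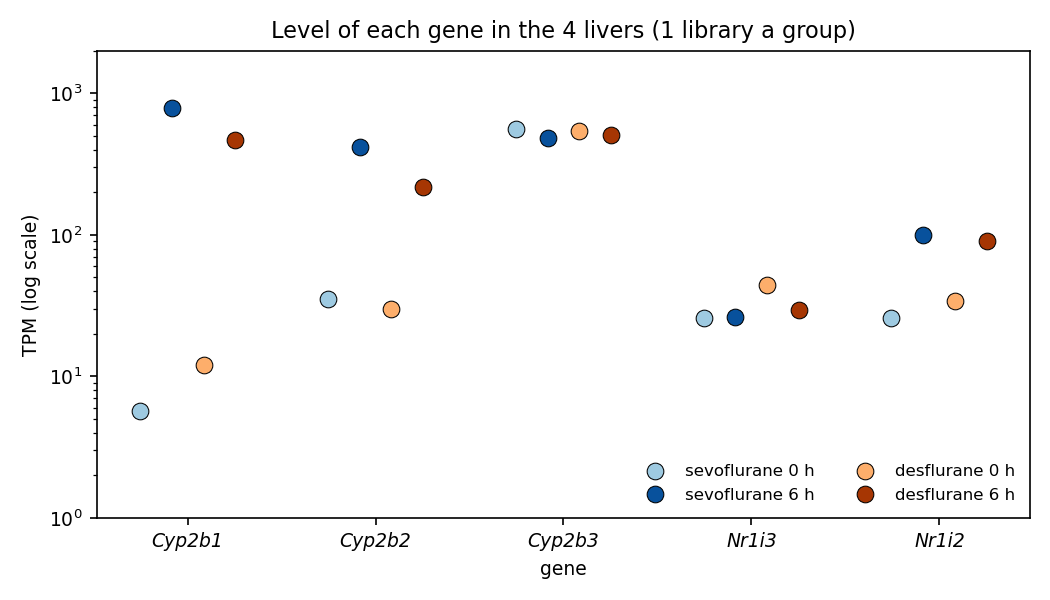
TPM (log scale) of each of the 5 genes, with 1 point for each of the 4 livers. Both 6 h livers lie far above both controls for *Cyp2b1* (465 and 790 against 5.73 and 12.1) and *Cyp2b2*, more moderately for *Nr1i2* (90.9 and 99.7 against 26.0 and 34.1), and the points of *Cyp2b3* lie close together.

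In the DNA just before their start, *Cyp2b1* and *Cyp2b2* are nearly identical and *Cyp2b3* differs from both. The part of this DNA in the changes was not tested. The sequences below, taken from RefSeq on the rat assembly GRCr8, are shown because *Cyp2b1* and *Cyp2b2* moved together and *Cyp2b3* did not. All 5 genes matched an entry of the promoter table by symbol. Each sequence runs 5′ to 3′ on the strand of the gene and ends at the last base before the first base of any annotated transcript. Capitals mark TTGCATAA, a sequence of the type bound by C/EBP and PAR bZIP transcription factors.
Cyp2b1, chr1:90645869-90646097, + strand: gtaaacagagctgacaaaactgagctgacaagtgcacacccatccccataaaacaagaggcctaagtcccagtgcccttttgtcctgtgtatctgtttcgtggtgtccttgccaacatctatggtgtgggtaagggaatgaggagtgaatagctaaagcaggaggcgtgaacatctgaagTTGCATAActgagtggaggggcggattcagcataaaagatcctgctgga
Cyp2b2, chr1:90722031-90722242, + strand: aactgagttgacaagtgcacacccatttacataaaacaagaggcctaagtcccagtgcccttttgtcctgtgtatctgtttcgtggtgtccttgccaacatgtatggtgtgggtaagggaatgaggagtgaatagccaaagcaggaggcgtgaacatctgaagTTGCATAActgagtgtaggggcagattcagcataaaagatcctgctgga
Cyp2b3, chr1:90780242-90780467, + strand: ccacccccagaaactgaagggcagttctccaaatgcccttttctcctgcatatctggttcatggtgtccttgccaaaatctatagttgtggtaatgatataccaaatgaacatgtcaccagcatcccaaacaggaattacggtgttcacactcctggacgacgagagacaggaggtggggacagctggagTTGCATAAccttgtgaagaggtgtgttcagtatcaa

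Over 212 aligned bases, the *Cyp2b1* and *Cyp2b2* sequences were identical at 204 (96.2%) and differed by 8 substitutions without an inner gap. *Cyp2b1* and *Cyp2b3* were identical at 129 of 177 aligned bases (72.9%), with 49 gap bases inside the alignment. TTGCATAA, searched with its reverse complement TTATGCAA in the 250 bases before the start that the promoter table uses, was found in 264 of 33465 promoters (0.789%). All 3 *Cyp2b* promoters shown hold it once, so its presence did not separate the genes that rose from the one that was not called. That start lies inside the annotated gene for the 3 *Cyp2b* genes and *Nr1i3*, so the windows searched run past the ends of the sequences shown. The first base of the match lies 70, 87 and 60 bases before it in *Cyp2b1*, *Cyp2b2* and *Cyp2b3*. The sequence was not found in the windows of *Nr1i3* and *Nr1i2*. The nuclear receptor half-sites AGGTCA (in 14.1% of promoters) and AGTTCA (in 12.2%), searched on both strands, were not found in the windows of the 3 *Cyp2b* genes. Only exact matches within the 250 bases were counted, so this does not show that the genes lack receptor sites further upstream or in a variant form. AGTTCA was found once in the window of *Nr1i2*.

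*Cyp2b1*, in the tables on chromosome 7 from 99158102 to 99181774 (plus strand), stood at a TPM of 5.73 in sevoflurane 0 h, 790.0 in sevoflurane 6 h, 12.1 in desflurane 0 h and 465 in desflurane 6 h. Both 6 h livers lay far above both controls. Its change of log2(TPM + 1) was 6.88 with sevoflurane, rank 1 of 8270 tested genes and equal to 2 decimals to that of *Sds*, and 5.15 with desflurane, rank 3 of 8372. By the ratio of TPM with sevoflurane, *Dbp* stood above it (219.6 against 138), and by the assembled loci the rise of *Cyp2b1* was smaller (45.2-fold). The common change was 6.02 (SE 0.29, limma adjusted p = 1.04e-07). Among all named genes it moved from rank 5295 by TPM in sevoflurane 0 h to rank 90 in sevoflurane 6 h, and from rank 3584 to rank 160 in the desflurane livers. The controls themselves differed 2.11-fold, with the larger value in desflurane 0 h, and this difference was also called. The same rule called 2.76% of genes between the controls (1.96% higher and 0.799% lower in desflurane 0 h). With median-of-ratios scaling, this difference was no longer called (105 higher and 93 lower calls over all genes, against 162 and 66).

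*Cyp2b2* lies on chromosome 1 from 83103925 to 83119578 (plus strand) in the tables. Its TPM was 35.5 in sevoflurane 0 h, 418 in sevoflurane 6 h, 29.8 in desflurane 0 h and 217 in desflurane 6 h. It was thus the more abundant of the near copies in both controls and the less abundant in both 6 h livers. The rise was 11.8-fold with sevoflurane (rank 14 from the top by log2 change) and 7.29-fold with desflurane (rank 26), and the common change was 3.17 on the log2 scale (SE 0.17, limma adjusted p = 2.38e-07). The controls differed by 0.24 on the log2 scale.

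Since *Cyp2b1* and *Cyp2b2* share most of their sequence and how the reads were divided between them is not given in the sources used here, their sum was also followed. The sum was nearly equal in the controls, with a TPM of 41.2 in sevoflurane 0 h and 41.9 in desflurane 0 h, and reached 1208 in sevoflurane 6 h and 682 in desflurane 6 h. The rise of the sum was 29.3-fold with sevoflurane and 16.3-fold with desflurane, and its common log2 change was 4.42 (SE 0.17, limma adjusted p = 3.39e-08). Relative to albumin, the sum was 0.0717% and 0.0712% in the controls, 2.16% in sevoflurane 6 h and 1.28% in desflurane 6 h. The share of *Cyp2b1* in the sum was 13.9% and 28.8% in the sevoflurane and desflurane controls and 65.4% and 68.1% in the corresponding 6 h livers. This share does not depend on the scaling between libraries, but it does depend on how shared reads were divided.

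*Cyp2b3*, on chromosome 1 from 83163103 to 83236615 (plus strand), behaved differently from its neighbors. Its TPM was 558 in sevoflurane 0 h, 483 in sevoflurane 6 h, 542 in desflurane 0 h and 509 in desflurane 6 h. The 6 h values were somewhat below the controls with both agents, by 0.21 and 0.09 on the log2 scale, and 56.8% and 80.5% of tested genes changed at least as much. The sign with desflurane depended on the scaling, with changes of 0.02 by the median of ratios and 0.05 relative to albumin. The common change was -0.15 (SE 0.11, limma adjusted p = 0.545). In the controls *Cyp2b3* made up 93.1% and 92.8% of the TPM of the 3 *Cyp2b* genes. After 6 h this share was 28.6% with sevoflurane and 42.7% with desflurane, while the 3 genes together went from 599 to 1691 TPM and from 583 to 1191 TPM. The predominant *Cyp2b* transcript was therefore *Cyp2b3* in both controls and *Cyp2b1* in sevoflurane 6 h, whereas *Cyp2b3* remained the most abundant single gene in desflurane 6 h.

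**Figure D2:**
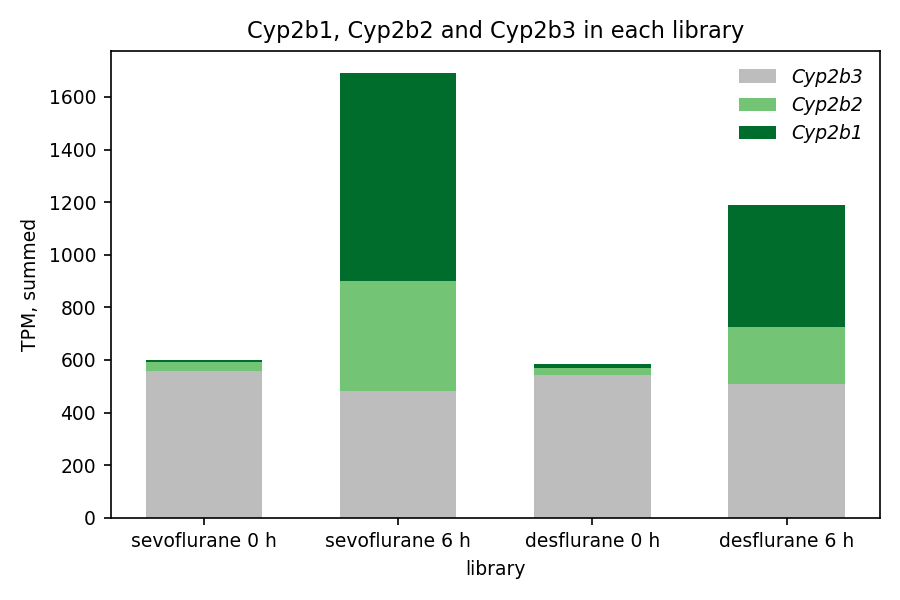
Stacked TPM of *Cyp2b3* (gray), *Cyp2b2* (light green) and *Cyp2b1* (dark green) in each library. The gray part stays between 483 and 558 TPM, and the green parts add 41.2 and 41.9 TPM in the controls but 1208 and 682 TPM in the 6 h livers.

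The remaining *Cyp2b* genes examined were almost silent, with maximum TPM values of 0.20 for *Cyp2b12*, 0.11 for *Cyp2b15* and 0.0014 for *Cyp2b21* over the 4 libraries (these 3 were singled out after their values were seen). Of 10 other *Cyp2* genes of the same family cluster, 4 exceeded the minimum. With sevoflurane 0 of them were called, and with desflurane 1 was called lower, *Cyp2f4*, which encodes a related P450 (from 26.5 to 11.1 TPM). Of all tested genes, 8.75% were called in either direction with sevoflurane and 9.65% with desflurane. With only 4 genes, these counts do not set the cluster apart from that share. *Cyp2a1* and *Cyp2a2*, steroid hydroxylases of the cluster, were not called, with changes of -0.21 and -0.45 on the log2 scale with sevoflurane and 0.09 and -0.13 with desflurane. *Cyp2t1* lay between 12.7 and 18.8 TPM. In the assembly GRCr8, *Cyp2b1* precedes *Cyp2b2* and *Cyp2b3* on chromosome 1, whereas the deposited tables place *Cyp2b1* on chromosome 7.

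The tables also list loci assembled from the reads without a gene name, which give another value at each gene from the same library. These are not independent measurements: *Cyp2b1* in desflurane 0 h (12.1 TPM) and *Nr1i2* in sevoflurane 6 h (99.7 TPM) had the same value by both. Summed over the assembled loci on its strand that overlap it, *Cyp2b1* had TPM values of 13.5 in sevoflurane 0 h, 610 in sevoflurane 6 h, 12.1 in desflurane 0 h and 364 in desflurane 6 h. By this measure its ratio was 45.2 with sevoflurane and 30.1 with desflurane, smaller than by its named row, and the controls no longer differed by the rule. In sevoflurane 0 h the gene was covered by a pair of separate assembled loci (0.88 and 12.6 TPM), the larger of which ran past its annotated end. In the 6 h livers a single locus covered the gene and also ran past that end, whereas in desflurane 0 h the locus stopped there. In desflurane 0 h another locus, from 99181218 to 99183526, was assembled on the other strand (7.78 TPM) and was not part of the sum. The loci compared thus differed in extent, and the part of this in the ratios was not tested. By the assembled loci, the sum of *Cyp2b1* and *Cyp2b2* rose 15.4-fold with sevoflurane and 13.8-fold with desflurane, and its values in the sevoflurane and desflurane controls were further apart, at 71.5 and 46.5 TPM. An unnamed locus just upstream of *Cyp2b1* on the same strand, ending between 1301 and 2542 bp before its start and spanning 13100 to 14405 bp, had a TPM of 0.88 at 0 h and 297 at 6 h of sevoflurane, and of 2.61 and 163 at those hours of desflurane.

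**Figure D3:**
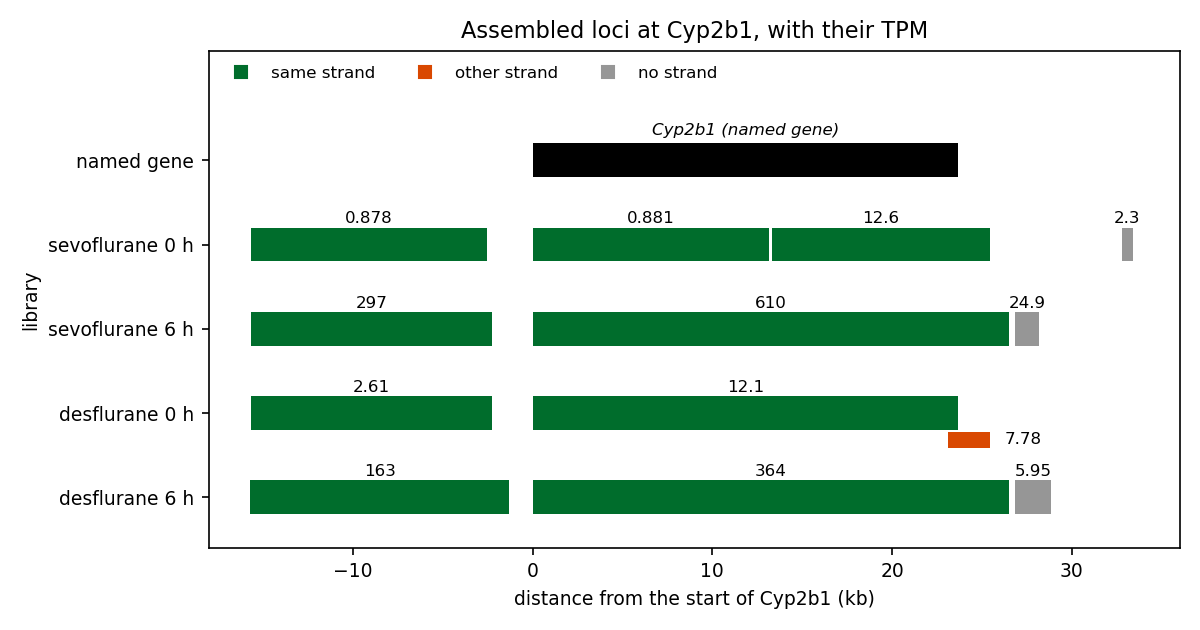
Assembled loci at *Cyp2b1* in each library, drawn by distance from the start of the gene (kb), colored by strand, with the TPM printed beside each. The upstream locus and the locus over the gene are both high in the 6 h livers (297 and 610 TPM with sevoflurane, 163 and 364 TPM with desflurane) and low in the controls.

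The receptors were examined next. *Nr1i2* (PXR), on chromosome 11 from 65022100 to 65058546 (plus strand), had a TPM of 26.0 in sevoflurane 0 h, 99.7 in sevoflurane 6 h, 34.1 in desflurane 0 h and 90.9 in desflurane 6 h. Both 6 h livers exceeded both controls, and the 6 h values lay within 1.10-fold of each other. The rise was 3.83-fold with sevoflurane (log2 change of 1.90, as large in 1.33% of tested genes) and 2.66-fold with desflurane (1.39, in 2.96%). The common change was 1.64 (SE 0.16, limma adjusted p = 3.84e-05). The controls differed 1.31-fold. By the assembled loci overlapping the gene, the rise was 3.31-fold with sevoflurane and 1.81-fold with desflurane, and the latter was not called. In desflurane 6 h that locus ran past the annotated end of the gene, to 65060340, whereas in the other livers it stopped at 65058546. The part of this in the lost call was not tested. With a ratio above 3 in place of 2, the named row was called with sevoflurane but not with desflurane.

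*Nr1i3* (CAR), on chromosome 13 from 89586336 to 89591278 (plus strand), had a TPM of 25.8 in sevoflurane 0 h, 26.3 in sevoflurane 6 h, 44.0 in desflurane 0 h and 29.6 in desflurane 6 h. The desflurane control stood above the other 3 livers. The change was 0.03 with sevoflurane and -0.56 with desflurane on the log2 scale, neither of which was called. The change with sevoflurane was -0.03 by the median of ratios, -0.05 in FPKM and -0.15 by the assembled loci. The difference between the controls (0.75 on the log2 scale, 1.71-fold) was larger than either change. Compared with the sevoflurane control, desflurane 6 h was higher by 0.19. The common change was -0.26 (SE 0.18, limma adjusted p = 0.495). The ratio of *Nr1i2* to *Nr1i3*, which is unaffected by scaling between libraries, was 1.01 and 0.78 in the sevoflurane and desflurane controls and 3.79 and 3.07 in the 6 h livers.

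In order of level, *Cyp2b3* was first, followed by *Cyp2b2*, *Nr1i2*, *Nr1i3* and *Cyp2b1* in sevoflurane 0 h. *Nr1i2* and *Nr1i3* were nearly equal in that liver, at 26.0 and 25.8 TPM. In desflurane 0 h the order was *Cyp2b3*, *Nr1i3*, *Nr1i2*, *Cyp2b2* and *Cyp2b1*. In both 6 h livers the 3 *Cyp2b* genes came first, then *Nr1i2*, and *Nr1i3* was last. With 1 library a group, the order of neighbors cannot be set against a spread between replicates.

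The agents were then compared at 6 h, where they were given at different concentrations. None of the 5 genes was called between desflurane 6 h and sevoflurane 6 h, a comparison in which 3.99% of tested genes were called (2.21% higher and 1.77% lower with desflurane). *Cyp2b1* was 1.70-fold and *Cyp2b2* 1.93-fold lower with desflurane, and their sum 1.77-fold lower. Differences at least as large were found in 4.62% and 2.35% of tested genes for *Cyp2b1* and *Cyp2b2*. *Cyp2b3*, *Nr1i3* and *Nr1i2* differed by 0.08, 0.16 and -0.13 on the log2 scale. The difference in response between the agents (change with desflurane minus change with sevoflurane) was -0.85 for the sum and -1.72 for *Cyp2b1*, of which the difference between the controls accounts for 0.96. By the assembled loci these differences in response were -0.17 for the sum and -0.60 for *Cyp2b1*. The loci summed for *Cyp2b1* differed in extent between the libraries, above all between the controls, and the part of this in these values was not tested. With 1 pair of livers for each agent, these differences in response were not tested.

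**Figure D4:**
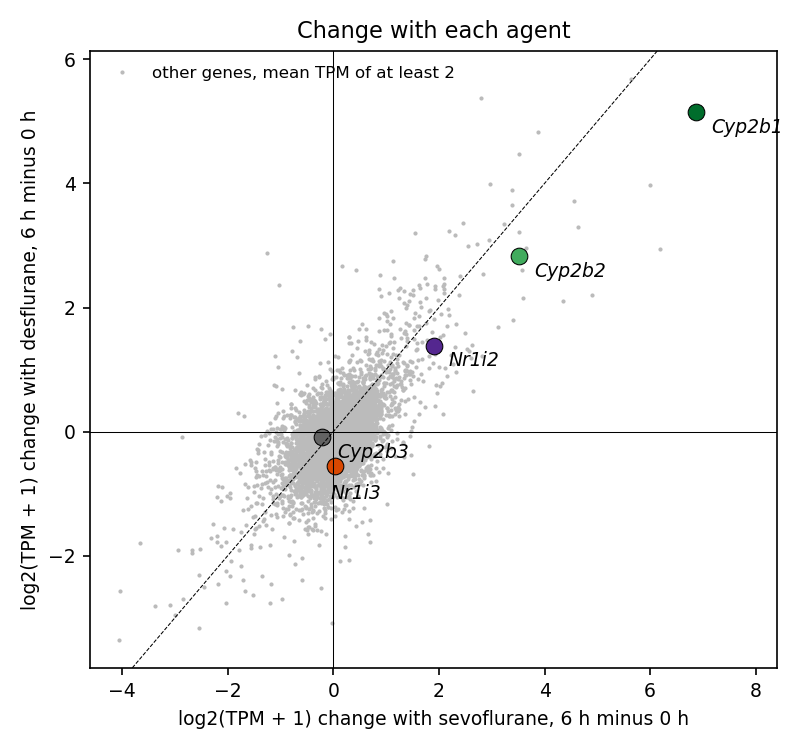
Change of log2(TPM + 1) from 0 h to 6 h with sevoflurane (x axis) and desflurane (y axis) for the 8024 genes whose mean TPM reached 2; the dashed line marks equal change. *Cyp2b1* lies at 6.88 and 5.15, at the upper right edge, with *Cyp2b2* and *Nr1i2* on the same side below the dashed line, and *Cyp2b3* and *Nr1i3* lie within the cloud of other genes.

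Other induced targets of CAR and PXR came next, 33 genes found in the tables of 35 listed. With sevoflurane 8 of the 29 above the minimum were called higher and 0 lower, and the corresponding figures for desflurane were 8 and 0 of 30. The share of all tested genes called higher was 5.04% with sevoflurane and 4.10% with desflurane. Over the 30 with a mean TPM reaching 2, the median of the log2(TPM + 1) changes was 0.44 with sevoflurane and 0.28 with desflurane, beside 0.05 and -0.10 over all such genes. Called higher with both agents were 6 genes, *Por* (the reductase that passes electrons to P450 enzymes), *Alas1* (the first enzyme of heme synthesis), *Cyp3a23/3a1* (a P450 and a classical PXR target), *Ces2c* (a carboxylesterase), *Abcb1a* (the drug efflux pump P-glycoprotein) and *Gadd45b* (a stress-induced protein that binds CAR).

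*Por* reached 538 TPM from 21.8 with sevoflurane and 386 from 28.6 with desflurane. *Cyp3a23/3a1* rose 4.01-fold with sevoflurane, to 1955 TPM, and 2.05-fold with desflurane, to 1265 TPM. *Abcb1a* stood at 2.76 and 4.99 TPM in the controls, 22.1 TPM in sevoflurane 6 h and 12.7 TPM in desflurane 6 h. For these 3 genes, as for *Cyp2b1* and *Cyp2b2*, the 6 h value was larger in the sevoflurane liver. *Alas1* and *Gadd45b* showed the opposite order, with 582 and 32.8 TPM in sevoflurane 6 h and 979 and 72.5 TPM in desflurane 6 h.

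Most of the list was not called. *Ugt1a1*, which conjugates bilirubin, was at 217 and 362 TPM at 0 h and 6 h of sevoflurane and at 254 and 397 TPM at the same hours of desflurane, within the ratio of 2 (it was picked after its values were seen). *Cyp3a9* and *Tsku* were called higher with sevoflurane and not with desflurane, and *Gsta3* and *Thrsp* the reverse, and the difference between the agents was not tested. For *Tsku*, *Thrsp* and *Gsta3* the controls also differed by the rule. *Tsku* stood at 16.0 and 62.8 TPM in the sevoflurane and desflurane controls and at 105 and 99.7 TPM in the 6 h livers, *Thrsp* at 305 and 148 TPM and then 469 and 429 TPM, and *Gsta3* at 1.23 and 2.87 TPM and then 0.75 and 6.16 TPM. *Sult2a1*, a sulfotransferase gene, was called between the controls (267 and 543 TPM), and *Aldh1a1*, an aldehyde dehydrogenase gene, between the 6 h livers (29.5 and 82.5 TPM). In all, 23 of the 33 genes were called with neither agent, a count that includes genes below the TPM minimum, which could not be called. Of 6 genes that activated CAR or PXR is known to lower, 0 were called lower with either agent. The share of all tested genes called lower was 3.71% with sevoflurane and 5.55% with desflurane, so 0 of 6 is near that share. *Pck1* (gluconeogenesis), *Cyp7a1* (bile acid synthesis) and *Cpt1a* (fatty acid oxidation) were called higher with sevoflurane, and *Cpt1a* and *G6pc* (glucose release) with desflurane. Of all tested genes, 5.04% and 4.10% were called higher with these agents. *Cpt1a* stood at 27.9 and 77.6 TPM in the controls and near 250 TPM in both 6 h livers (249.5 and 251). *Pck1* was at 527 and 942 TPM in the controls and at 1497 and 1762 TPM after sevoflurane and desflurane. *Cyp7a1* reached 186 TPM from 41.2 with sevoflurane and 59.1 TPM from 31.4 with desflurane. *G6pc* was at 258 TPM after sevoflurane (361 in its control) and at 651 TPM after desflurane (199 in its control). *Cyp8b1*, a bile acid synthesis enzyme, was called between the 6 h livers only (34.2 and 82.9 TPM).

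**Figure D5:**
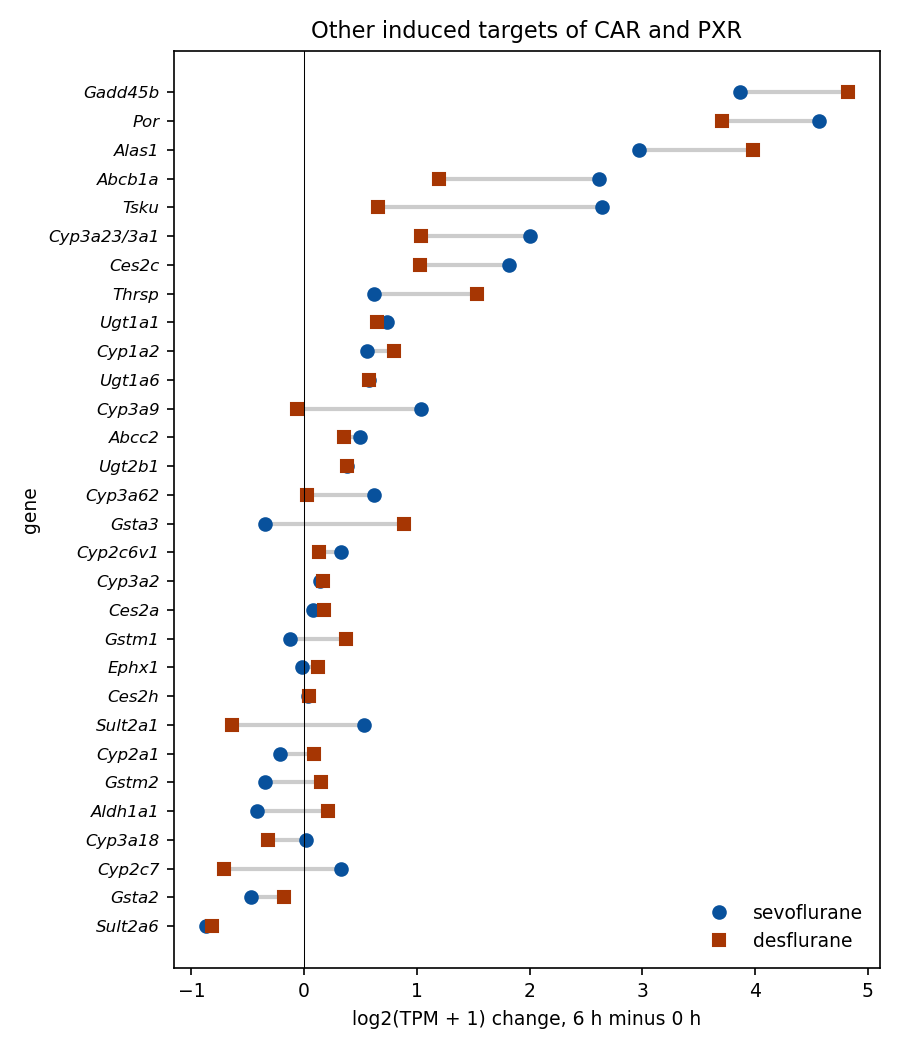
Change of log2(TPM + 1) from 0 h to 6 h with sevoflurane (circles) and desflurane (squares) for the listed CAR and PXR targets above a TPM of 2 in any library, ordered by their mean change. *Gadd45b*, *Por* and *Alas1* stand apart at the top with changes between 2.97 and 4.82, and most of the others lie near 0.

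Genes that act with or on the receptors were examined as well. *Rxra*, the main dimer partner in liver, stood at 55.5 and 59.0 TPM in the sevoflurane and desflurane controls and at 68.7 and 76.0 TPM in the 6 h livers, and was not called. Of 13 partners, coactivators and corepressors, 12 exceeded the minimum with sevoflurane and 11 with desflurane. With each agent 1 was called higher, the coactivator *Ppargc1a*. It was near 0 in the controls (0.026 and 0.41 TPM) and reached 2.48 TPM with sevoflurane and 9.09 TPM with desflurane. *Rxrg* was called lower with desflurane (from 6.96 to 3.24 TPM). *Prmt1* (5.22 to 10.4 TPM over the 4 libraries) and *Nr0b2*, the corepressor SHP (15.3 to 36.2 TPM), were called with neither agent. Of 16 genes of the complex that holds CAR in the cytoplasm and of the kinases and phosphatases upstream of it, 15 exceeded the minimum with each agent. Among them, 0 were called with sevoflurane and 1 was called higher with desflurane, *Prkaa1*, a catalytic subunit of AMP-activated kinase (from 4.28 to 9.66 TPM). The share of all tested genes called in either direction was 8.75% with sevoflurane and 9.65% with desflurane. Counts this small do not set either list apart from that share. *Hsp90aa1*, a chaperone of the complex that holds CAR, was at 50.5 and 51.2 TPM in the controls and at 31.6 and 34.5 TPM in the 6 h livers without passing the rule. *Hsp90ab1* likewise ranged from 158 to 223 TPM, and the phosphatase subunit *Ppp2ca* from 53.4 to 98.0 TPM, with no call.

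Of 13 transcription factors known to act on the *Cyp2b* or receptor genes, all exceeded the minimum with each agent. Sevoflurane gave 4 calls upward (*Foxo1*, *Ppara*, *Dbp*, *Tef*) and 1 downward (*Nfil3*), and desflurane 5 upward (the same genes and *Cebpb*) and 1 downward (*Foxa2*). Among all tested genes, 8.75% were called in either direction with sevoflurane and 9.65% with desflurane. *Ppara*, a fatty acid sensor, stood at 9.70 and 12.7 TPM in the controls and at 32.1 and 43.6 TPM in the 6 h livers. *Cebpb* was called with desflurane, from 28.4 to 168 TPM, and stood at 42.3 and 79.3 TPM with sevoflurane. *Hnf4a*, a principal regulator of hepatocyte genes, was not called, with 86.4 and 102 TPM at 0 h and 6 h of sevoflurane and 129 and 97.9 TPM at those hours of desflurane. Like that of *Nr1i3*, its highest value was in the desflurane control. The PAR bZIP factors *Dbp* and *Tef*, clock-driven regulators that are known to act on *Nr1i3* and *Cyp2b* genes, were called higher with both agents. *Dbp* went from 0.40 to 87.9 TPM and from 1.92 to 44.8 TPM, and *Tef* from 4.19 to 29.1 TPM and from 7.25 to 19.7 TPM. The part of the hour of harvest in the rise of *Cyp2b1*, *Cyp2b2* and *Nr1i2* was not tested.

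*Cyp2b* enzymes are normally more abundant around the central vein, so genes of both zones of the liver lobule were set beside them. Of 12 pericentral genes, 9 exceeded the minimum with sevoflurane (3 called higher and 0 lower) and 10 with desflurane (3 higher and 1 lower). Of 12 periportal genes, 11 exceeded it with each agent, and 4 were called higher and 1 lower with each. Among all tested genes, 5.04% were called higher and 3.71% lower with sevoflurane, and 4.10% and 5.55% with desflurane. *Glul*, which marks the hepatocytes next to the central vein, was not called, ranging from 127 to 152 TPM. *Cyp2e1*, a pericentral P450, was at 543 and 610 TPM in the controls, 1015 TPM in sevoflurane 6 h and 1364 TPM in desflurane 6 h, and of its changes only that with desflurane passed the rule. Pericentral *Oat*, an ornithine-degrading enzyme, rose to 402 and 305 TPM from 139 and 108 TPM with sevoflurane and desflurane. *Ahr*, the dioxin receptor, rose with sevoflurane (8.92 to 29.2 TPM) and stood at 20.6 and 37.9 TPM with desflurane. The glutamate transporter gene *Slc1a2* rose with desflurane (1.48 to 5.60 TPM) and stood at 2.47 and 4.91 TPM with sevoflurane, and *Tbx3* fell with desflurane (2.04 to 0.37 TPM). Periportal *Sds*, a serine-degrading enzyme, rose to 1135 and 714 TPM from 8.66 and 19.8 TPM, and the urea cycle genes *Asl* (380 and 459 TPM from 101 and 130) and *Arg1* (2104 and 1822 TPM from 708 and 886) rose as well. *Ass1*, also of the urea cycle, rose with desflurane (580 to 1457 TPM) and stood at 739 and 1346 TPM with sevoflurane, and the downward calls were *Cdh1* (E-cadherin, 16.7 to 6.08 TPM) with sevoflurane and *Cyp2f4* with desflurane. The median changes were 0.77 and 0.64 for pericentral and periportal genes with sevoflurane and 0.85 and 0.51 with desflurane.

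Finally, genes were ranked by how closely their levels over the 4 libraries followed those of the 5 genes, as the Euclidean distance between log2(TPM + 1) values centered on each gene's mean, among 8019 other genes. With only 4 points for each gene, this is a description. Nearest to the sum of *Cyp2b1* and *Cyp2b2* were *Por* (distance of 0.45), *Dbp* (0.93), *Got1* (1.09), *Eif4ebp3* (1.35) and *Zfp354a* (1.36). Nearest to *Nr1i2* were *Mat1a* (0.17), *Igfbp2* (0.18) and *Klf15* (0.20). Nearest to *Nr1i3* were *Cyp2d5* (0.06), *Egfl7* (0.08) and *Nxt1* (0.12), which were likewise highest in the desflurane control.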

How the data were processed

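Livers kept in RNAlater were used for stranded total RNA libraries, per the labels, which assign 1 library to each of 4 groups by title. The submitters' processing notes name HISAT2, SAMtools, StringTie and the build rn6, with no version or role. The deposit made by the authors is 1 gene table per library with coverage (mean depth per base), FPKM and TPM. The deposited TPM column was handled as a score, since named genes add between 0.766 and 0.789 times the sum of the assembled loci, to which it is scaled. Read counts are not in the columns used, so no counting interval is given.

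Rows with a span up to 200 bp were dropped and rows of a symbol were summed. Changes are differences of log2(TPM + 1), which understate the change of low genes. Calls needed a TPM above 2 in the higher library and a ratio above 2, without a p-value. The common change was fitted with limma 3.58.1 (R 4.3.3; eBayes with trend, agent as block, two-sided, Benjamini-Hochberg adjustment) on genes whose mean TPM reached 2. Nothing says which animals were handled together. With 1 library in each group, the p-values of the common change do not measure a spread between replicate animals. They rest on how unequally a gene responded to sevoflurane and desflurane (1 residual degree of freedom) and largely on a spread borrowed from the other genes. Both steps were tested on simulated data. The members, the 10 gene lists, the tests and the alternatives (thresholds, pseudocounts, scaling, controls, FPKM, left-out libraries) were chosen with earlier results of these data known. Genes named are the members, list genes called in any comparison, the 4 of each list with the largest absolute mean change, *Por*, *Alas1*, *Rxra*, *Hnf4a*, *Dbp*, *Gadd45b*, *Ppargc1a*, *Alb* and *Glul*, and the 5 or 3 nearest genes. Exceptions are marked in the text. Promoters were compared with Biopython 1.88.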

Additional observations from a re-analysis of the deposited data

Results flagged for a closer look

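The change of *Nr1i3* was positive with sevoflurane (0.029 on the log2(TPM + 1) scale) and negative with desflurane (-0.556). The opposite directions held for TPM as deposited and relative to albumin, but with sevoflurane the change was -0.03 by the median of ratios, -0.05 in FPKM and -0.15 by the assembled loci, where both directions were negative. *Cyp2b3* had opposite directions by the median of ratios (-0.27 and 0.02) and relative to albumin (-0.17 and 0.05). Neither change was called, and the difference between the agents was not tested, since each had a single pair of livers. With the other agent's control the directions became -0.720 with sevoflurane and 0.193 with desflurane.

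A signal outside the named genes was found on chromosome 7, where an assembled locus without a name lies upstream of *Cyp2b1* on the same strand. In sevoflurane 6 h it spanned 99142451 to 99155861 and had a TPM of 297, against 0.88 in sevoflurane 0 h. In desflurane 6 h it spanned 99142397 to 99156801 and had a TPM of 163, against 2.61 in desflurane 0 h. Its listed coverage was 2.07-fold and 9.01-fold in the sevoflurane and desflurane controls and 1017-fold and 240-fold in the corresponding 6 h livers. In desflurane 6 h that coverage is low for the TPM of the locus, since *Cyp2b1* was listed there with 1691-fold at 465 TPM. The coverage of the locus therefore does not serve to compare the agents. What the locus encodes was not tested.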

How the results depend on the processing

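*Cyp2b1*, *Cyp2b2* and their sum kept their direction and their call with both agents under each alternative run, and *Cyp2b3* and *Nr1i3* were called with neither agent, though the sign of their small changes depended on the scaling and the control. *Nr1i2* kept its direction, and its call with sevoflurane. With desflurane it was not called with a ratio above 3 (2 of the 5 genes called). By the assembled loci, chosen after seeing the data, the change of the sum was 3.93 with sevoflurane and 3.75 with desflurane, and *Nr1i2* with desflurane was not called either (0.84). The assembled loci differed in extent between the libraries, and the part of this was not tested. The number of the 5 genes called between the controls went from 1 to 0 with a ratio above 3 or with scaling by the median of ratios, and to 2 with a ratio above 1.5. Between the 6 h livers it went from 0 to 2 with a ratio above 1.5. Over all genes, the 724, 808, 228 and 328 calls (sevoflurane, desflurane, controls, 6 h livers) became 284, 311, 46 and 83 with a ratio above 3 and 1924, 2027, 872 and 1179 with a ratio above 1.5. Without a TPM minimum they became 1666, 1730, 976 and 1132. A minimum of 5 gave 529 with desflurane, 101 between the controls and 157 between the 6 h livers, a minimum of 1 gave 383 and 523 in the latter pair, and FPKM gave 137 between the controls. The common change called 692 genes, 440 without a trend, and between 163 (without sevoflurane 0 h) and 591 (without sevoflurane 6 h) when each library was left out, an alternative added after seeing the data that needed a fit with no block and assumes that a lone library varies like the others. It called 283 without desflurane 0 h and 411 without desflurane 6 h. *Cyp2b1*, *Cyp2b2* and *Nr1i2* were called in each of these fits, with adjusted p for *Nr1i2* between 3.84e-05 and 0.0149. The same fit with no block on all 4 libraries called 488. Beyond the thresholds themselves and the smaller number of libraries, the cause was not tested. No paired analysis was possible because the labels give no replicate numbers that would pair animals. The block in the common change is the agent. The coverage of 13.5-fold limits the precision of *Cyp2b1* in sevoflurane 0 h, and with it that of its fold change.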
